A study of Mus musculus with 4 samples.

Results

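The measurement described here is the difference between genotypes in how far each transcript moved between 0 h and 24 h. It is the change in Lpar1-/- (KO) Swiss 3T3 fibroblasts, 24 h less 0 h, minus the same change in Lpar1+/+ (WT) fibroblasts, on the log2 scale. A value of 1 means that the KO change lay 2-fold above the WT change, and a value of -1 that it lay 2-fold below. The same number is the KO-to-WT gap at 24 h less that gap at 0 h, so it can come from either genotype and from either time. Of 29675 genes on the array, 17135 had a probe well above background on all 4 arrays. Of these, 13816 had a mean normalized log2 signal of -4 or more and are called bright here, and 3319 lay below that and are called dim. The other 12540 genes were not measured on all 4 arrays. A normalized log2 signal of 0 is the 75th percentile of the array's own spots.

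Lysophosphatidic acid is a signalling lipid made outside cells, largely by the enzyme autotaxin (Enpp2), and Lpar1 is one of its G protein-coupled receptors. In fibroblasts the receptor is known to act on the actin cytoskeleton, growth and matrix genes. Fibroblasts support mast cells through stem cell factor (Kitl), IL-33 and prostanoids, and immature mast cells kept on fibroblasts take on features of connective tissue mast cells.

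Swiss 3T3 is an established mouse embryo fibroblast line. The study had 4 groups with 1 array each: WT at 0 h, KO at 0 h, WT at 24 h and KO at 24 h of coculture, the partner being mast cells grown from bone marrow. The KO cells were 1 clone grown from a single cell after CRISPR editing of Lpar1, so clone and genotype cannot be told apart. Stem cell factor was added to the cocultures, and each array held RNA pooled from 3 samples. The labels call all 4 groups cocultured and leave unsaid whether mast cells were present at 0 h, and they name trypsin with reseeding or beads against CD117 as the ways of separating fibroblasts. There is no replicate array, so no difference below was tested. A gene is called where it passed 2-fold, which describes these 4 arrays. Errors are standard errors (SE) from the scanner software's spot error, with a median of 0.29 for a bright gene, and they cover neither culture nor labelling. They varied little between genes, with medians of the gene lists from 0.29 to 0.31. They are thus not a measured spread of each gene. On probes printed 10 times, the measured SD of the difference for 1 spot had a median of 0.17.

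Markers bear on the labelled cell type. The 19 bright fibroblast markers had median signals of 3.34 at 0 h and 4.23 at 24 h in WT, and of 2.35 and 3.43 in KO. The 15 bright mast cell markers had medians of 3.71 and 4.85 on the WT and KO 0 h arrays and of -3.51 and -3.04 at 24 h. Arrays labelled as fibroblasts thus carried abundant mast cell transcripts at 0 h and little of them at 24 h. The 13 bright pan-leukocyte markers went from 1.02 to -4.13 in WT and from 2.03 to -4.29 in KO, so the KO 0 h array was the highest in both lists. In such bulk RNA, fewer cells of a type and less RNA per cell cannot be told apart. Spots well above background made up 72.7%, 71.5%, 67.3% and 62.1% of each array in the order WT 0 h, KO 0 h, WT 24 h, KO 24 h, and no spot was saturated.

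For most bright genes the changes in WT and KO lay within 2-fold of each other. The KO change was at least 2-fold above the WT change for 695 bright genes (5.03%) and at least 2-fold below it for 832 (6.02%), which left 12289 within 2-fold. The median difference was 0.11, with the middle of the distribution between -0.26 and 0.44 (quartiles). Differences of 4-fold or more numbered 77 above and 196 below, and differences of 16-fold or more numbered 7 above and 8 below. At the thresholds, Gdnf lay just inside at 1.0006 and Eps8 just outside at 0.9991, and Rint1 lay just inside at -1.0001 and Capn5 just outside at -0.9995. Plekhs1, with a mean signal of -3.999, was the last named gene counted as bright, and Dnmt3aos, at -4.004, was the first counted as dim.

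**Figure D1:**
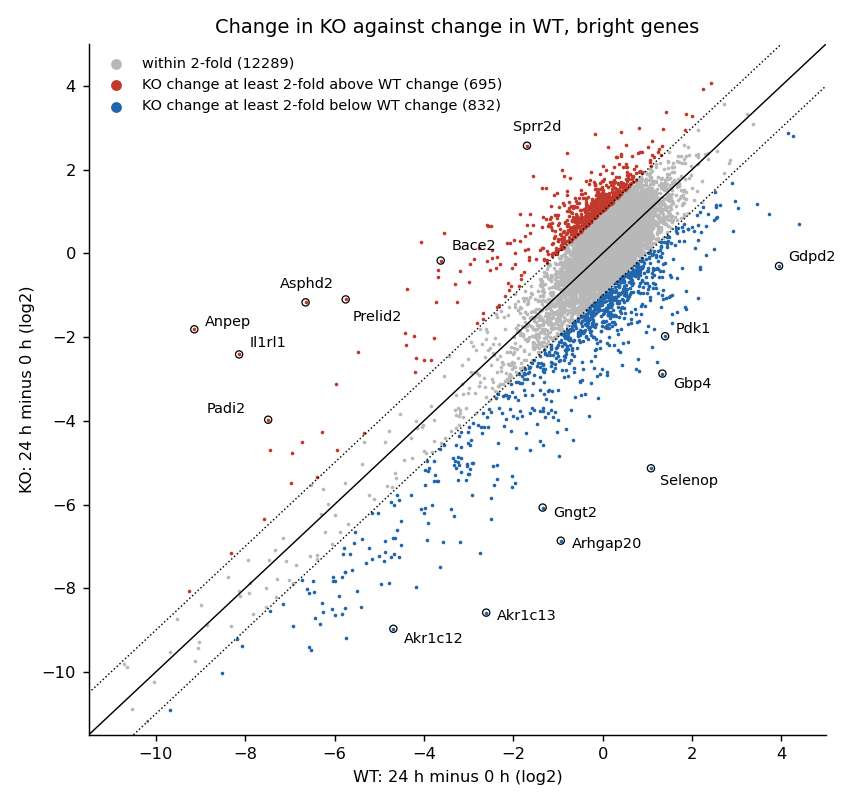
Each point is 1 of the 13816 bright genes, with its WT change (24 h minus 0 h, log2) on the x axis and its KO change on the y axis; the solid line marks equal changes and the dotted lines 2-fold. The 695 red genes lie above the band and the 832 blue genes below it, and Anpep and Selenop lie farthest from the line among named genes.

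Dim genes followed another pattern. Their median difference was -0.78, 1441 of 3319 (43.4%) were at least 2-fold below and 109 (3.28%) at least 2-fold above. Agilent's spike-in control RNAs are designed to be added in equal amounts to every labelling. The 2 dim ones read -1.49 and -1.33, whereas the 8 bright ones read 0.08 to 0.33, and dim values were kept apart for that reason. Of dim genes that also passed 2-fold with normexp background correction, Bdkrb1, a bradykinin receptor, had the highest difference at 3.38 (2.14 with normexp). Nat8 had the lowest at -4.75 (-2.35 with normexp).

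**Figure D2:**
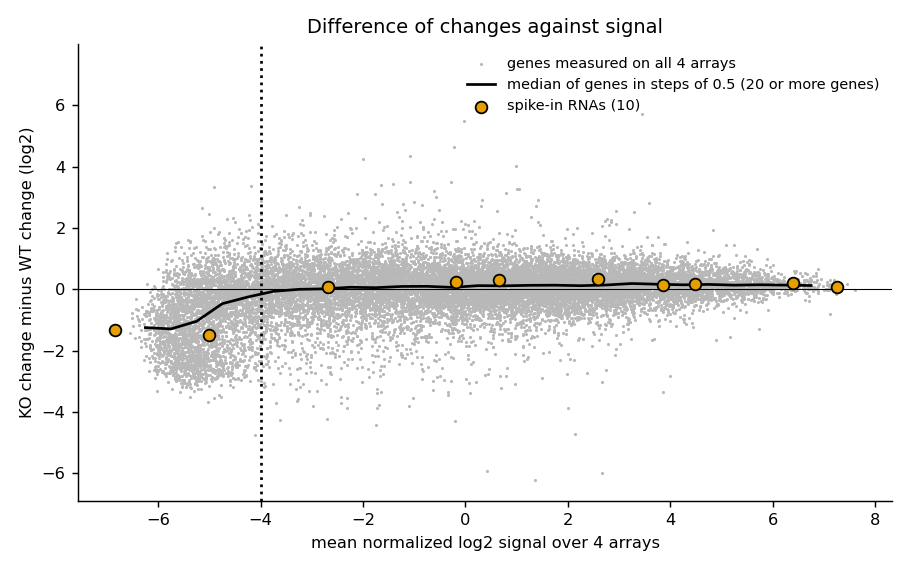
Each grey point is a gene measured on all 4 arrays, with the mean normalized log2 signal on the x axis and the KO change minus the WT change (log2) on the y axis; the black line is the median in signal steps of 0.5, orange circles are the spike-in RNAs and the dotted line marks -4. The median stays close to 0 to the right of the dotted line and drops to the left of it, where the 2 dim spike-in RNAs also lie.

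The 695 genes above were mostly genes that were higher at 24 h in KO. For 336 the KO signal was at least 2-fold higher at 24 h while the WT change was within 2-fold, and for 90 the WT signal was lower and the KO change within 2-fold. Both signals were lower for 34, both higher for 18, and the changes ran in opposite directions for 7. Neither change reached 2-fold on its own for 210. Read as genotype gaps, 207 genes differed by 2-fold between KO and WT at 24 h only and 104 at 0 h only, while 144 differed the same way at both times and 240 at neither. For comparison, 10.4% of all bright genes were at least 2-fold higher at 24 h in KO and 9.24% lower, against 4.28% higher and 6.17% lower in WT. KO was at least 2-fold above WT for 4.65% of bright genes at 0 h and 6.28% at 24 h, and at least 2-fold below for 4.89% and 6.51%.

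Among the 832 genes below, 322 were lower at 24 h in KO only and 95 higher in WT only. For 247 the signal was lower at 24 h in both genotypes, by at least 4-fold in both for 153, out of 327 bright genes that were so much lower in both. Those genes share the direction of the mast cell and leukocyte markers, which were higher on KO 0 h than on WT 0 h by a median of 0.83 and 1.05. Mast cell markers differed by a median of -0.00 and leukocyte markers by -0.99, with 6 of 13 leukocyte markers at least 2-fold below (6.02% of all bright genes) and 0 above; with normexp 3 were below. Without the background filter, 9 of 19 leukocyte markers were below and 0 above, and the mast cell median was -0.31. Dock2, a leukocyte regulator of Rac, read -2.72 and Cd53, a leukocyte tetraspanin, -2.09. What leukocyte RNA on the 0 h arrays contributes to these 247 genes was not tested. In 57 of the 832, the KO-to-WT gap was at least 2-fold at both times and in opposite directions. Of the 832, 288 had at least 1 array under -4, with 264 under it on KO 24 h and 106 on WT 24 h.

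Anpep, the cell surface aminopeptidase N (CD13), had the highest difference. Its normalized log2 signal was 3.75 at 0 h and -5.39 at 24 h in WT, and 3.59 and 1.77 in KO. The genotypes were level at 0 h, and WT 24 h was far below the other 3 arrays. The WT change was -9.14 and the KO change -1.81, a difference of 7.32 (SE 0.35), or 160-fold. The WT 24 h reading lay near the lowest signal well above background on that array, -6.16. With normexp the difference was 5.33. Its probe lies at chr7:86966716-86966775 (mm9, minus strand).

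Il1rl1 encodes ST2, the receptor for IL-33, which mast cells carry in abundance. It read 5.89 at 0 h and -2.24 at 24 h in WT, and 6.28 and 3.86 in KO. On KO 24 h it was the highest of the 15 bright mast cell markers, whose median there was -3.04. The pattern was that of Anpep: lower at 24 h in both genotypes, but much less so in KO. The difference was 5.72 (SE 0.29), 52.7-fold, and a second probe gave 5.09. The probe lies at chr1:40522187-40522246 (mm9, plus strand). Of the 15 bright mast cell markers 2 were above and 2 below (5.03% and 6.02% of all bright genes). With quantile normalization, normexp, centring on bright genes or the spike-in trend subtracted 1 was above, and with the last 4 were below. Without the background filter, which adds markers at background, 2 of 20 were above and 6 below, with a median of -0.31. Gata2, a transcription factor of mast cells and blood progenitors, differed by 1.04, or by 0.60 with normexp. Hdc, the histamine-forming enzyme, differed by -2.57 and Ltc4s, which makes leukotriene C4, by -1.29. The median change of the 15 markers was -7.89 in WT and -7.32 in KO. The part of mast cell RNA in the readings of Anpep and Il1rl1 was not tested.

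Other genes with the highest differences shared that low WT 24 h reading. Asphd2 read 1.24, 2.60, -5.41 and 1.43 in the order WT 0 h, KO 0 h, WT 24 h, KO 24 h, a difference of 5.48 (3.48 with normexp). Padi2, which converts arginine to citrulline in proteins, read 2.25, 2.93, -5.24 and -1.05, a difference of 3.51 that its second probe put at 3.37. Over the alternatives it ranged from 2.02 to 3.85. Bace2, an aspartyl protease, read -1.25, 0.33, -4.87 and 0.16, a difference of 3.45 (2.16 to 3.60 over the alternatives). Of the 695 genes above, 112 had at least 1 array under -4, and 76 had it on WT 24 h against 2 on KO 24 h.

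Small proline-rich and late cornified envelope genes, best known from the skin barrier, were also among the 15 highest. Sprr2d read -3.62 at 0 h and -5.31 at 24 h in WT, and -0.83 and 1.74 in KO. It was lower at 24 h in WT and higher in KO, with a difference of 4.26 (SE 0.35; 3.02 with normexp). Lce1g read 0.46 and -2.13 in WT and 2.52 and 3.20 in KO, a difference of 3.26, and Lce1i differed by 3.15. In these genes KO was above WT at both times, and by more at 24 h. Members of both families are near-identical in sequence and lie side by side, so probes may read more than 1 of them.

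Selenop, the secreted selenoprotein that carries selenium, had the lowest difference. It read 2.51 at 0 h and 3.59 at 24 h in WT, and 2.23 and -2.90 in KO. The genotypes were level at 0 h, after which WT was 2.12-fold higher and KO 35.1-fold lower. The difference was -6.22 (SE 0.29; -5.57 with normexp), with the probe at chr15:3230418-3230477 (mm9, plus strand). No other of the 18 bright selenoproteins passed 2-fold, and their median difference was 0.09.

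The aldo-keto reductases of the Akr1c cluster, which act on steroids and prostaglandins, went both ways. Akr1c13 read 5.12, 5.80, 2.51 and -2.78 in the order WT 0 h, KO 0 h, WT 24 h, KO 24 h, a difference of -5.98 (SE 0.29). Akr1c12 read 2.65, 3.75, -2.03 and -5.22, a difference of -4.28. Both were lower at 24 h in both genotypes and lowest on KO 24 h. The part of mast cell RNA in the readings of Akr1c12 and Akr1c13 was not tested. Akr1c18, which inactivates progesterone and can also act on prostaglandins, read -0.89, -1.61, -1.06 and 1.23, a difference of 3.01. It was highest on KO 24 h and near level on the other 3 arrays. Akr1c12 and Akr1c13 are close paralogs whose probes may share signal.

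Several genes of the low end are known from blood cells. Gngt2, a G protein gamma subunit, read 3.58, 4.42, 2.24 and -1.66, a difference of -4.73. Gpsm3, a G protein signalling modulator of leukocytes, read 3.08, 3.83, 2.11 and -1.01, a difference of -3.87. In both, WT kept much of its 0 h signal at 24 h and KO did not, and KO had been the higher at 0 h. Arhgap20, a GTPase-activating protein, read 2.01, 2.72, 1.08 and -4.15, a difference of -5.93. Gdpd2, a glycerophosphodiester phosphodiesterase, differed by another route: it read -3.99, -5.08, -0.04 and -5.38, so WT 24 h alone was high, and its difference was -4.25. The part of leukocyte RNA in the readings of Gngt2, Gpsm3 and Arhgap20 was not tested.

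**Figure D3:**
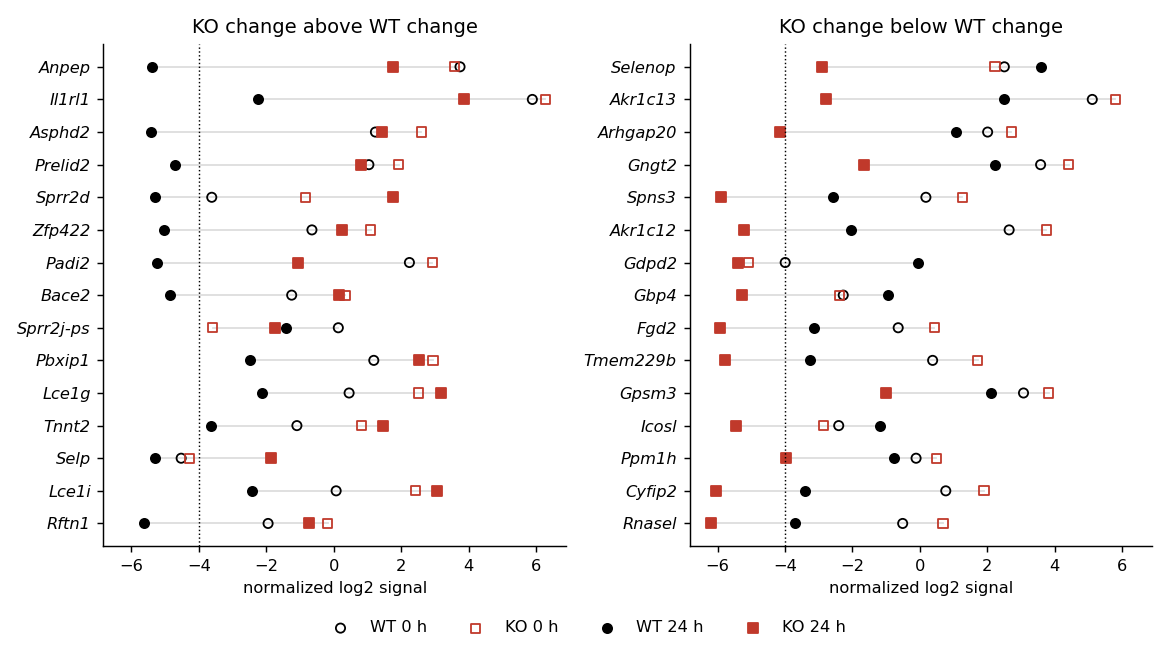
Rows are the 15 named bright genes with the highest (left) and lowest (right) difference, and the x axis is the normalized log2 signal on each array: open circles WT 0 h, open squares KO 0 h, filled circles WT 24 h, filled squares KO 24 h, with the dotted line at -4. In most rows on the left the filled circle is far to the left of the other marks, and in the right panel the filled square is the lowest in every row.

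Hypoxia and glycolysis genes lay almost entirely on the lower side. Of 26 bright members, 24 were below 0 and 2 above; 10 were at least 2-fold below, where 6.02% of all bright genes were, and 0 above. The list's median difference was -0.84 against 0.11 for all bright genes. The median WT change was 0.39 and the median KO change -0.48, and the median KO-to-WT gap went from 0.28 at 0 h to -0.56 at 24 h. Pdk1, a pyruvate dehydrogenase kinase, read -1.83, -1.33, -0.44 and -3.31 (WT 0 h, KO 0 h, WT 24 h, KO 24 h). It was higher at 24 h in WT and lower in KO, a difference of -3.38 (SE 0.29). Ero1a, an oxidase that forms disulfide bonds in the endoplasmic reticulum, read 0.78, 1.57, 0.08 and -2.18, a difference of -3.05. Bnip3, a mitophagy receptor, read 4.25, 5.21, 4.19 and 2.33, a difference of -2.82, and its other probes gave -2.96 to -2.66. KO was the higher genotype at 0 h and the lower at 24 h in all 3 genes. Mast cell and leukocyte markers were also higher on KO 0 h than on WT 0 h, by medians of 0.83 and 1.05. The part of such RNA in these readings was not tested. P4ha1, a collagen prolyl hydroxylase, differed by -1.82 (-2.31 with a second probe). Among glycolytic enzymes, Aldoc and Pfkl, isoforms of aldolase and phosphofructokinase, differed by -1.38 and -1.29, while Ldha, Pgk1 and Eno1 lay within 2-fold. The count was 11 below with normexp.

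Promoters of 2 genes at the low end of this list are shown because both hold the core of the hypoxia response element, the sequence known to be bound by hypoxia-inducible factors. They are the 250 bases before the gene's start, from RefSeq on GRCm38.p6, 5′ to 3′ on the gene's strand, with ACGTG on either strand (ACGTG or CACGT) in capitals. Bnip3 is at chr7:138909507-138909756 and Ero1a at chr14:45318573-45318822, both on the minus strand.
Bnip3: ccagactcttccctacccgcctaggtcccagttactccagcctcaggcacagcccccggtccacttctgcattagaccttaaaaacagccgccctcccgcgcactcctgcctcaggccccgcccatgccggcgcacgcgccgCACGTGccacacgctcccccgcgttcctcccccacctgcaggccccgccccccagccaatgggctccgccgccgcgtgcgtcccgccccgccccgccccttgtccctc
Ero1a: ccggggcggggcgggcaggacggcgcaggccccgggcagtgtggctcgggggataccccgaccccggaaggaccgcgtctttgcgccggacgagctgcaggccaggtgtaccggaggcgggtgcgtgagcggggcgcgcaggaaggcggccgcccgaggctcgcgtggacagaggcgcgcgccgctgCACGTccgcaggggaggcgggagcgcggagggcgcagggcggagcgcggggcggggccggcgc
The run in Bnip3 is CACGTG, where overlapping matches on both strands begin at -108 and -107 from the start, and the match in Ero1a begins at -63. Searched over the 300-base window from 250 bases before the start to 50 after, 19.6% of 32851 RefSeq promoters and 21.8% of 27025 genes held the core. Of the 24 bright list members with an entry, 18 held it: 6 of the 8 that were at least 2-fold below and 12 of the other 16. The core was as frequent among members that did not pass 2-fold. A match is a description of the letters and not of a bound site.

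Interferon-stimulated genes had a larger median change in WT than in KO, with members on both sides. Of 23 bright members, 8 were at least 2-fold below (6.02% of all bright genes) and 0 above, with a median difference of -0.47. The median WT change was 0.95 and the median KO change 0.44. Psmb9, an immunoproteasome subunit, read -0.14, 0.84, -0.40 and -2.25 in the order WT 0 h, KO 0 h, WT 24 h, KO 24 h, a difference of -2.82. Usp18, which removes ISG15 from proteins and restrains interferon signalling, read -0.13, -0.62, 0.11 and -2.80, a difference of -2.43. In both, KO 24 h was the low array. Ifit3, an interferon-induced antiviral protein, read -2.59, -2.67, -0.02 and -1.81, a difference of -1.70. Here both genotypes were higher at 24 h, WT by 5.94-fold and KO by 1.82-fold. By contrast Mx1, Ifit1 and Cxcl10 had differences above 0.

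Among the named genes with opposite changes in the genotypes were 3 interferon-inducible GTPases, of families that act against intracellular pathogens. They were chosen for that pattern, so their values are a description. Gbp4 read -2.27 at 0 h and -0.93 at 24 h in WT, and -2.39 and -5.26 in KO, a difference of -4.21 (SE 0.32). Over the alternatives that difference ranged from -4.27 to -2.58. Ifi47 read 0.70, 0.75, 2.24 and -0.92 (WT 0 h, KO 0 h, WT 24 h, KO 24 h), a difference of -3.21. Irgm2 read -0.39, -0.21, 1.15 and -1.66, a difference of -2.995. The genotypes were near level at 0 h in all 3, after which WT was at least 2-fold higher and KO at least 2-fold lower.

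Promoters of Irgm2 and Ifit3 are shown because both hold a core of the interferon-stimulated response element, taken here as GAAA, any 2 bases and GAAA, and because their KO changes ran in opposite directions. The sequences are again the 250 bases before the start from RefSeq on GRCm38.p6, 5′ to 3′, with that motif or its reverse complement (TTTC, any 2 bases, TTTC) in capitals. Irgm2 is at chr11:58214727-58214976 and Ifit3 at chr19:34583279-34583528, both on the plus strand.
Irgm2: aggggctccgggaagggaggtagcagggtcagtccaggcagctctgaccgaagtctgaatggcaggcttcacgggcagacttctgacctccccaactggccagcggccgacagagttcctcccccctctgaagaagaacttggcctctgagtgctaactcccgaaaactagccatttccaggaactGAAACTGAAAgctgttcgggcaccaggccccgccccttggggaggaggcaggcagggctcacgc
Ifit3: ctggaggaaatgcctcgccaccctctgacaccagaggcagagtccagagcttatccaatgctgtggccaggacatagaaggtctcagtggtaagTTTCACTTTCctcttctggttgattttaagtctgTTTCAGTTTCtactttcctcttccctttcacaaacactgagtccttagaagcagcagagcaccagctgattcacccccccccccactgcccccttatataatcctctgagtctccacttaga
The match in Irgm2 begins at -64 from the start, and those in Ifit3 begin at -156 and -122. In the same 300-base window, 3.44% of promoters and 3.99% of genes held the motif. Of 19 bright interferon-stimulated genes with an entry, 11 held it: 2 of the 6 at least 2-fold below, Ifit3 and Stat2, and 9 of the other 13. In that list the motif was not the more frequent among members at least 2-fold below. Of the 5 bright immunity-related GTPase genes, the family of Irgm2, 4 held it, among them 3 of the 4 at least 2-fold below.

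Antigen presentation genes, a list that shares immunoproteasome and peptide transporter genes with the last, had 5 of 14 at least 2-fold below and 1 above (6.02% and 5.03% of all bright genes). Tap2, a subunit of the peptide transporter that loads class I molecules, read 3.01, 4.03, 2.86 and 1.75, a difference of -2.12. Psmb8, a second immunoproteasome subunit, read 1.18, 1.82, 1.495 and -0.01, a difference of -2.14. Both were higher in KO than in WT at 0 h and lower at 24 h. The part of mast cell and leukocyte RNA in these readings, and in those of Psmb9, was not tested. The 1 gene above, Ubd, a ubiquitin-like modifier, had 1.70 but read -0.017 with normexp.

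Complement and acute-phase genes were higher at 24 h in both genotypes, by a median of 1.82 in WT and 1.24 in KO. Of 17 bright members, 7 were at least 2-fold below and 1 above (6.02% and 5.03% of all bright genes), with a median difference of -0.40. The median turned to 0.47 over members with a mean signal of at least -3. Saa3, an acute-phase apolipoprotein, read -3.93, -4.60, -0.47 and -3.41 (WT 0 h, KO 0 h, WT 24 h, KO 24 h), a difference of -2.28. KO was below WT at both times, and by more at 24 h. Osmr, the oncostatin M receptor, went the other way with 3.76, 0.01, 4.56 and 3.01, a difference of 2.19: the KO level was far below WT at 0 h and nearer to it at 24 h.

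The list of TGF-beta and BMP targets, pathways which govern matrix production and differentiation, lay on the other side. It also holds ligands such as Tgfb1 and Bmp4 and secreted antagonists such as Grem1 and Fst, so its counts are not of targets alone. Of 19 bright members, 18 were above 0 and 7 at least 2-fold above (5.03% of all bright genes), with 0 below. The median difference was 0.91, from a median WT change of -0.36 and KO change of 0.49. Grem1, a secreted BMP antagonist, read 0.48 at 0 h and -0.28 at 24 h in WT, and 4.30 and 5.38 in KO. KO was far above WT at both times, and the difference of changes was 1.84. Id3, an inhibitor of basic helix-loop-helix factors, read 2.51, 2.04, 2.26 and 2.98, a difference of 1.19. Id4 differed by 1.47, but a second probe read -0.25. With normexp 6 members passed 2-fold, and with the spike-in trend subtracted 2 did.

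**Figure D4:**
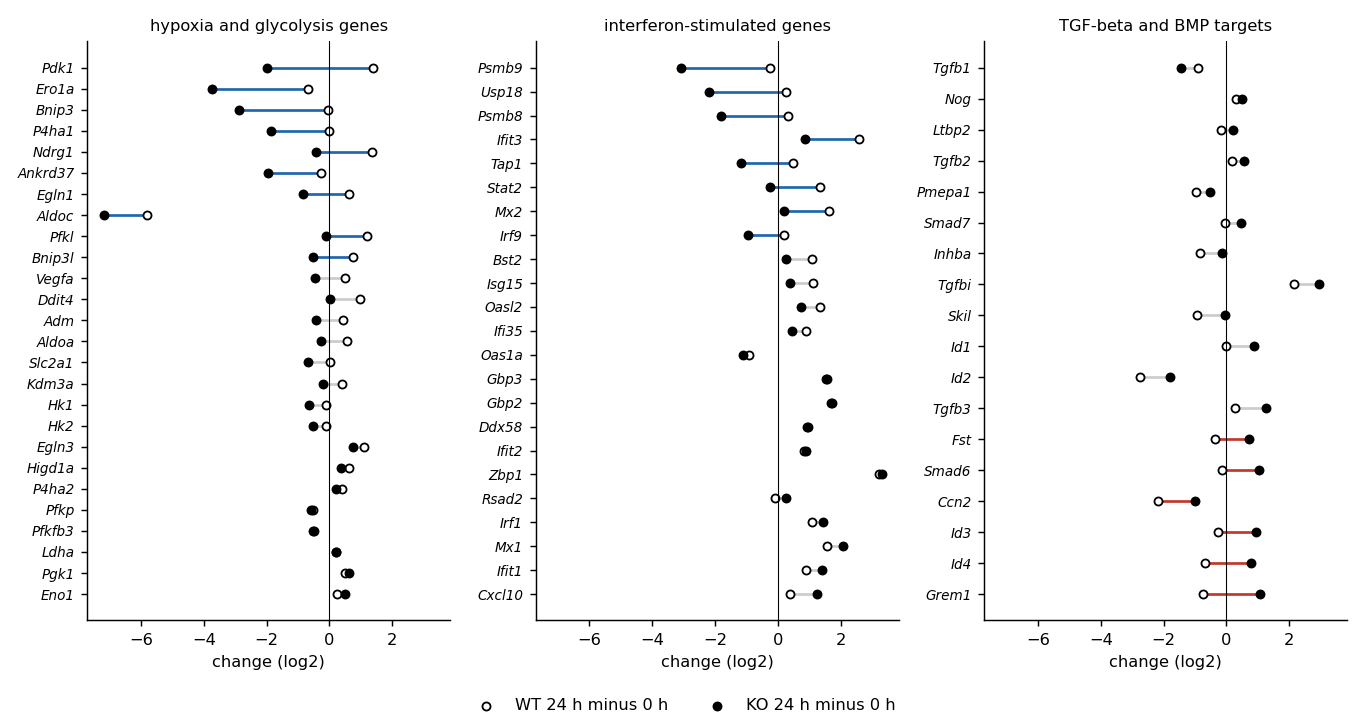
Rows are bright members of 3 gene lists, with 1 TGF-beta and BMP target not shown, and the x axis is its change from 0 h to 24 h (log2), open circles for WT and filled circles for KO; blue or red joins mark a difference of at least 2-fold. Filled circles lie to the left of open ones for most hypoxia genes and to the right for all but 1 of the TGF-beta and BMP targets drawn, while interferon-stimulated genes are divided.

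Matrix proteases and growth factors had members above and none below, whereas collagens and matrix genes had 1 of 21 above and 1 below (median 0.08). Matrix proteases and their inhibitors had 9 of 22 above (5.03% of all bright genes) and 0 below (median 0.75), though with normexp only 2 passed 2-fold. Mmp3, stromelysin, read -0.97, -1.18, -0.55 and 1.15 in the order WT 0 h, KO 0 h, WT 24 h, KO 24 h, a difference of 1.92. It was high on KO 24 h and near level on the other 3. Growth factors had 7 of 17 above (5.03% of all bright genes) and 0 below (median 0.82; 5 above and 1 below with normexp, 5 and 2 with the spike-in trend subtracted). Gas6, the ligand of Axl-family receptors, read -1.51, 0.22, -3.99 and 0.11, a difference of 2.37. Ereg, an EGF receptor ligand, read 1.71, 1.35, 0.03 and 2.03, a difference of 2.36. WT was lower at 24 h in both, while KO was near level for Gas6 and higher for Ereg.

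MAPK feedback genes, which are induced by ERK signalling and many of which restrain it, had 5 of 18 above (5.03% of all bright genes) and 0 below (median 0.43; 3 above and 1 below with the spike-in trend subtracted). Etv4, an ETS factor, read 2.77, 3.10, 2.30 and 4.61, a difference of 1.98 that its second probe put at 1.91. Dusp2, a MAP kinase phosphatase, read -1.35, 0.65, -2.55 and 1.35, a difference of 1.90. Both were highest on KO 24 h. Immediate early genes had 5 of 21 below, against 6.02% of all bright genes, and 1 above, which is near the 5.03% of all bright genes (median -0.01). Fos read 3.25, 4.00, 0.08 and -1.24, a difference of -2.06, and Fosl1, a related factor, read 0.15, 0.53, -1.01 and 1.39, a difference of 2.02. Both genotypes had lower Fos at 24 h, whereas Fosl1 was lower in WT and higher in KO. The part of mast cell RNA in the Fos readings was not tested.

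YAP and TAZ targets had 5 of 16 above (5.03% of all bright genes) and 0 below (median 0.62), of which 2 passed 2-fold with normexp and 1 with the spike-in trend subtracted. Hyaluronan and proteoglycan genes had 4 of 15 above (against the same 5.03%) and 0 below (median 0.70; 2 above and 2 below with the spike-in trend subtracted). Cell cycle genes had 4 of 23 above (against 5.03%) and 0 below, with 21 members above 0 and a median of 0.57. Mcm2, a subunit of the replicative helicase, read 1.84, 0.86, 1.73 and 2.32, a difference of 1.57, and Ccnd1, cyclin D1, read 4.90, 3.80, 4.90 and 5.01, a difference of 1.22. In both the WT signal was level between the times, and KO was below WT at 0 h and at or above it at 24 h. For p53 targets, 5 of 16 were below, against 6.02% of all bright genes, and 1 was above, which is near the 5.03% of all bright genes (median -0.13). Btg2, an antiproliferative gene, read 0.40, -0.00, 0.34 and -2.09, a difference of -2.03. Gdf15, a stress-induced cytokine, was the 1 above with a difference of 2.24.

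Stress genes of the unfolded protein and integrated stress responses had 6 of 22 below (6.02% of all bright genes) and 0 above, with a median of -0.16. Sdf2l1, an endoplasmic reticulum protein induced by misfolded proteins, read 0.37, 0.81, 0.47 and -0.89, a difference of -1.81. Edem1, which takes part in the degradation of misfolded glycoproteins, read 0.98, 1.68, 1.09 and 0.22, a difference of -1.58. KO 24 h was the lowest array for both. Oxidative phosphorylation subunits did not divide the genotypes: 0 of 29 passed 2-fold, with a median of 0.12.

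**Figure D5:**
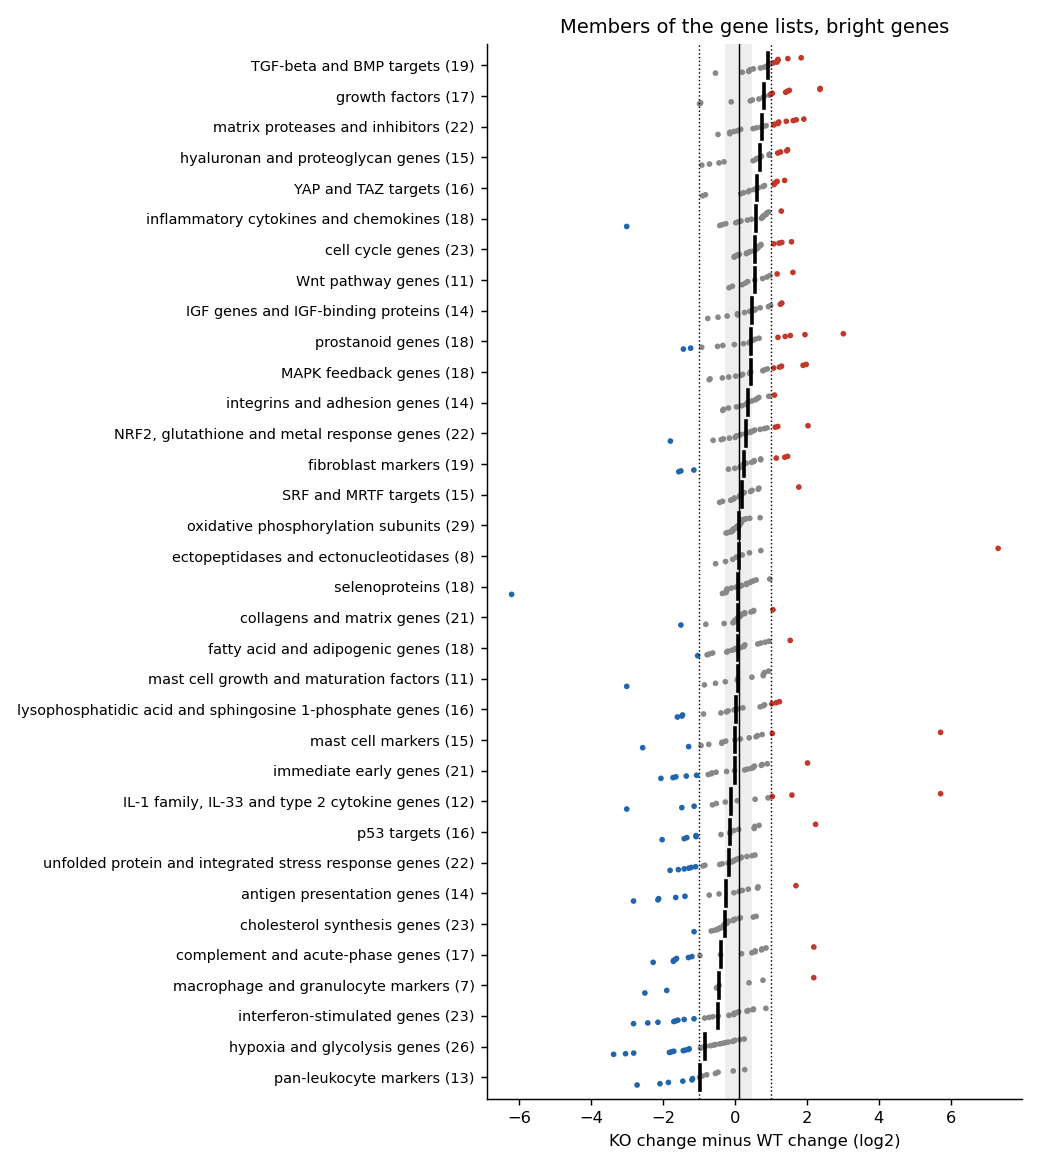
Rows are the 34 gene lists with at least 5 bright members (Akr1c reductases and cornified envelope genes are not drawn), ordered by median; the x axis is the KO change minus the WT change (log2), points are members (red and blue past 2-fold), short black bars are medians, and the grey band is the quartile range of all bright genes around their median of 0.11. Of the lists drawn, hypoxia genes and leukocyte markers lie at the bottom with medians of -0.84 and -0.99, and TGF-beta and BMP targets at the top with 0.91.

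In the lysophosphatidic acid pathway the differences were small or divided. The array's probe for Lpar1 read -3.20, -3.43, -3.15 and -3.61 (WT 0 h, KO 0 h, WT 24 h, KO 24 h), a difference of -0.24 with an SE of 0.30. The transcript of an edited gene can still be detected, so this reading checks nothing about the genotype. Enpp2, the enzyme that makes the lipid, read -3.90, -1.57, 0.36 and 1.23. Both genotypes were higher at 24 h, WT by 19.1-fold and KO by 6.94-fold, and the difference was -1.46 (-0.86 with normexp). Lpar6, another receptor of the lipid, read 4.20, 5.07, 1.54 and 0.92, a difference of -1.48 with a second probe at -1.50. Its signal was lower at 24 h in both genotypes, as the mast cell markers were, and their part in it was not tested. Lpar2 differed by 1.02, but its second probe read -1.45. Of the 16 bright genes of lysophosphatidic acid and sphingosine 1-phosphate, 3 were above and 3 below (5.03% and 6.02% of all bright genes), with a median of 0.03 that ranged from -0.09 to 0.07 over the alternatives. With normexp 1 was above and 2 below, and with the mean of a gene's probes 1 was above.

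Among factors by which fibroblasts act on mast cells, Il33, Kitl and Tslp lay within 2-fold, while others did not. Il33 was higher at 24 h in both genotypes, with a difference of -0.27 (SE 0.30). Kitl, the gene of stem cell factor, differed by 0.82 and Tslp by 0.06. Il6, a cytokine also made by mast cells, was the 1 of 11 bright mast cell growth and maturation factors past 2-fold. Cadm1, an adhesion molecule of the same list, was measured on 3 arrays only, and its difference had a nominal bound of at most -3.92. Il6 read 4.20, 4.997, 1.82 and -0.39, a difference of -3.01, so it was lower at 24 h in both genotypes, as the mast cell markers were, and their part in it was not tested. Both cyclooxygenases, the entry enzymes of prostanoid synthesis, lay above. Ptgs1, cyclooxygenase-1, read 4.16, 4.09, 4.00 and 5.12, a difference of 1.19. Ptgs2, cyclooxygenase-2, read 2.05, 2.92, -0.05 and 2.21, a difference of 1.40. Ptgs1 was high on KO 24 h alone, whereas Ptgs2 was low on WT 24 h. Tbxas1, thromboxane synthase, lay below at -1.24. Among 18 bright prostanoid genes, 5 were above and 2 below (5.03% and 6.02% of all bright genes), with a median of 0.44. Cd44, the hyaluronan receptor, differed by 1.19 (0.87 to 0.95 with its other probes) and Has2, a hyaluronan synthase, by -0.71.

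A gene well above background on exactly 3 arrays gives only a bound. There were 2395 such genes, dim on KO 24 h for 1670 and on WT 24 h for 565. The largest bounds below were those of Sirt5, a mitochondrial deacylase, at most -6.55, and of Mmp27, a matrix metalloproteinase, at most -6.09. Il1r2, the decoy receptor of IL-1, was at most -5.61. Above, Pde3b, a cyclic nucleotide phosphodiesterase, was at least 5.16, and Lce1f, a cornified envelope gene, at least 4.22.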

How the data were processed

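RNA of 4 groups of Swiss 3T3 cells (WT and KO at 0 h and 24 h, 1 single-colour Agilent array each) was measured, and each array held RNA pooled from 3 samples. The scanner files hold spot intensity, per the file headers, and the submitters' processing notes name Agilent Feature Extraction 12.1.1.1. Background had been removed from the processed signal, with no scaling across the slide's arrays, per the file headers. The deposited value table is a linear ratio. Dividing processed signal by it gave 1197.47 and 1002.93 for WT and KO at 0 h, and 926.641 and 749.899 for WT and KO at 24 h, which are the 75th percentiles recorded in the headers. It is not centred, and its column medians were 0.0442 and 0.0483 at 0 h and 0.0452 and 0.0334 at 24 h. Well-above-background flags are those deposited in the scanner files. The cell content of the 0 h samples is not given in the sources used here.

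Control spots and 93 to 122 outlier spots per array were left out. The log2 of the deposited processed intensity less each array's 75th percentile was averaged over spots of a probe, and a gene took its brightest probe. RefSeq accessions (GRCm38.p6) named 29110 of 39429 probes and updated 344 symbols, and the file's own name served for 10319. Probe coordinates are those of the files (mm9), and promoters are RefSeq's on GRCm38.p6. A bright gene had a mean of at least -4. With 1 array a group there is no test: the 2-fold threshold is descriptive, and the number of arrays limits the precision. On probes printed 10 times, 1 spot's SD of the difference was 0.17 (median). The calculation was tested on simulated data.

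The genes and the 36 lists (824 entries, of which 2 are not on the array) were chosen with earlier results of these data known. Named genes are the 15 highest and 15 lowest bright and 3 of each dim side that also passed 2-fold with normexp, up to 4 called members at each end of a list, the study's genes, the 4 largest bounds each side, and 6 genes with opposite changes each side. Aldoc, Pfkl, Ldha, Pgk1, Eno1, Mx1, Ifit1, Cxcl10, Stat2, Cadm1, those at the thresholds and the families of the closing section were named outside this rule, after their values were seen. Where a gene was dim on 1 array, its bound used the higher of the probe's own signal and that array's lowest signal well above background. Alternatives were quantile normalization, normexp (offset 50) with quantile normalization in limma 3.58.1 (R 4.3.3), the deposited table, every gene without the background filter, cuts at -5 and -3, the mean of a gene's probes, centring on bright genes, and subtraction of the spike-in trend. Other steps used Python 3.11.15 with pandas 2.3.3. Values of a few genes are not reported here.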

Additional observations from a re-analysis of the deposited data

Results flagged for a closer look

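In 12 named genes the change between 0 h and 24 h was at least 2-fold in both genotypes and ran in opposite directions. With 1 array a group the difference was not tested. Of those lower in WT and higher in KO, the KO change minus the WT change was 4.26 for Sprr2d, 3.41 for the pseudogene Sprr2j-ps, 2.91 for Ramp3, 2.83 for Prl2c1, 2.49 for Faim2 and 2.46 for Plekhs1. Ramp3, an accessory protein of calcitonin-family receptors, read -2.03 at 0 h and -3.37 at 24 h in WT, and 2.58 and 4.14 in KO, and a second probe gave a difference of 2.80. Of those higher in WT and lower in KO, it was -4.21 for Gbp4, -3.38 for Pdk1, -3.21 for Ifi47, -3.19 for Sbk2, -2.995 for Irgm2 and -2.58 for Slc46a3. Among all 13816 bright genes, 7 of the 695 above and 21 of the 832 below had such opposite changes, clones and predicted genes included.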

How the results depend on the processing

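Bright genes above and below numbered 695 and 832, and 426 and 588 of them passed 2-fold with normexp as well. Counts moved by over 1.5 times as follows. With normexp, 449 bright genes were above, and 24 dim genes above and 28 below, against 109 and 1441. With quantile normalization the dim counts were 557 above and 726 below, and with the spike-in trend subtracted 1090 above and 369 below. With no filter they were 721 above and 9852 below, which adds genes at background. A cut of -5 gave 1262 bright genes below and 31 dim genes above, and a cut of -3 gave 198 dim genes above, since the cut moves genes between the classes. Beyond those, the cause was not tested. Of the named genes past 2-fold, Ubd changed sign with normexp (-0.017 against 1.70), and Lpar2 with the mean of its probes (-0.22 against 1.02). Near 0, Lpar1 ranged from -0.29 to 0.13 and Tslp from -0.08 to 0.11. Subtracting the spike-in trend moved the median of bright genes from 0.11 to -0.07, and 428 and 733 of the 695 and 832 still passed 2-fold. Sizes moved by more than the spot error for 81 of 157 genes with normexp, 56 with the spike-in trend and 33 with quantile normalization. With the authors' value table no named gene moved beyond it. No paired analysis was possible because each group has 1 array, and leaving out a replicate leaves no difference to compute. Signal over background limits dim genes, and the lone arrays limit all values.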

Other observations

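The families below were chosen after their values were seen, so their counts describe these arrays only. Of the immunity-related GTPase genes, 5 were bright. They are interferon-inducible proteins that act on the vacuoles of intracellular pathogens, and 4 of the 5 were at least 2-fold below: Ifi47 at -3.21, Irgm2 at -2.995, Igtp at -2.32 and Tgtp2 at -2.26. Igtp read -0.85 at 0 h and 0.47 at 24 h in WT, and -0.45 and -1.45 in KO. Of 7 bright guanylate-binding protein genes 2 were below, Gbp4 at -4.21 and Gbp7 at -2.09. All 3 bright members of the Trim12 and Trim30 cluster were below, with Trim12c at -3.09, Trim30d at -2.52 and Trim30a at -1.81. Across all bright genes 6.02% were below.

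Late cornified envelope genes of the Lce1 cluster had 5 of 5 bright members at least 2-fold above, with a median of 2.23, where 5.03% of all bright genes were. The values were 3.26 for Lce1g, 3.15 for Lce1i, 2.23 for Lce1c, 1.35 for Lce1a2 (a second probe read -0.09) and 1.07 for Lce1j. The 1 dim Lce1 gene was at least 2-fold below, as were 43.4% of all dim genes. The prolactin family in mouse includes placental hormones and the proliferins of growing fibroblasts. All 3 of its bright genes were above: Prl2c1 at 2.83, Prl3d1 at 2.42 and Prl2c5 at 1.93. Of its 3 dim genes, 1 was at least 2-fold below and 0 above. Prl2c1 read 4.49, 2.54, 3.23 and 4.11 in the order WT 0 h, KO 0 h, WT 24 h, KO 24 h, so KO was the lower genotype at 0 h and the higher at 24 h. Members of these clusters are close copies of each other, and their probes may share signal.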
